A study of Mus musculus with 12 samples.

Results

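The subject is the set of genes for the subunits and named assembly factors of the mitochondrial respiratory chain and ATP synthase in mouse neural stem/progenitor cells (NSPCs) treated with pravastatin, an inhibitor of HMG-CoA reductase. Members were the protein-coding rows of the deposited expression table whose gene name starts with Nduf, Uqcr, Atp5, Sdh or mt-. That rule used names only and found 85 of the 16106 genes in the table (12794 of them protein-coding). Of these, 78 are encoded in the nucleus and 7 in mitochondrial DNA. The 7 are mt-Nd1, mt-Nd2, mt-Nd4, mt-Nd5, mt-Nd6, mt-Cytb and mt-Co1, out of the 13 mRNAs that mouse mitochondrial DNA is known to encode, and the other 6 were not analysed here. The name rule leaves out the nuclear subunits of complex IV other than Ndufa4, which are given near the end.

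Cortex of embryonic day 14.5 mice was dissociated and grown as neurospheres, which are floating clusters that NSPCs form. At passage 3 the cultures received 10 µM pravastatin or the same volume of vehicle (PBS) for 24 hours, and total RNA was sequenced. The series holds 12 libraries in 4 groups of 3: female pravastatin, male pravastatin, female vehicle and male vehicle. The mice were C57BL/6, cortex was taken from embryos one at a time, and no group carries a named mutation or transgene. Each pravastatin library shares its replicate number with 1 vehicle library of the same sex, and such a pair is called a culture below. The comparisons ask whether 24 hours of pravastatin moved the nuclear-encoded and the mitochondrially encoded transcripts, and whether the 2 kinds moved alike within each culture.

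The chain passes electrons from NADH through complex I (NADH dehydrogenase) and from succinate through complex II (succinate dehydrogenase) to ubiquinone. Complex III then carries them to cytochrome c and complex IV carries them to oxygen. Complexes I, III and IV pump protons out of the matrix, and ATP synthase (complex V) uses the returning protons to make ATP. Complex II is encoded in the nucleus alone, whereas complexes I, III, IV and V are built from products of both genomes. Mitochondrial mRNAs are cut from long transcripts read off both strands of the circular genome by a dedicated RNA polymerase, so their supply and that of the nuclear subunits are set in separate compartments. Proliferating neural progenitors are known for a high rate of glycolysis, and oxidative phosphorylation gains weight as they differentiate. Statins also lower the supply of the isoprenoid that forms the tail of ubiquinone.

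The nuclear members are spread over many chromosomes, and their promoters were searched for letters that factors known to act on respiratory genes recognise. The RefSeq promoters used run over 300 bases (250 before to 50 after the start, build GRCm38.p6), and 68 of the 78 nuclear members had one in the table. The letters searched on both strands were GCGCATGC for nuclear respiratory factor 1 (NRF1), CCGGAAG for the ETS family that includes GABPA (NRF2), and AAGATGGC for YY1. The ETS and YY1 letters can share the bases AAG, and the NRF1 letters can match both strands at 1 place. The windows printed here lie upstream of the gene, come from members with values below (Ndufa11, Atp5e and Uqcr11 were chosen after their values were seen), and have the matching bases in capitals. Sdhd and Atp5e have CTTCCGG, which is the ETS letters on the other strand, and Uqcr11 has CCGGAAG. Ndufa11 and Ndufaf4 have the NRF1 letters on both strands in overlap. They lie at chr9:50603864-50603920 (- strand) for Sdhd, chr2:174464172-174464228 (- strand) for Atp5e, chr10:80406856-80406912 (- strand) for Uqcr11, chr17:56717677-56717736 (+ strand) for Ndufa11 and chr4:24897945-24898004 (+ strand) for Ndufaf4.
Sdhd: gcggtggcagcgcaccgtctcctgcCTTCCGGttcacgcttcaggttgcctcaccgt
Atp5e: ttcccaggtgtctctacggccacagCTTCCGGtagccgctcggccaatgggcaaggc
Uqcr11: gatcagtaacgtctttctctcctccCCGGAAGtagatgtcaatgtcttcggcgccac
Ndufa11: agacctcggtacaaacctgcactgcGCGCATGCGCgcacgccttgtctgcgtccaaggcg
Ndufaf4: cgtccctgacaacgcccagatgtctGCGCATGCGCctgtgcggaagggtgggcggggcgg

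The NRF1 letters were in 11 of the 68 member promoters (16.2%), against 6.16% of the 10204 tested genes with a promoter and 2.71% of all 32851 promoters of the same length. The ETS letters were in 18 members (26.5%), against 20% of the 10204 tested genes (2037) and 8.86% of all promoters. For the YY1 letters the count was 12 members (17.6%), against 5.32% of tested genes and 2.75% of all promoters. At least 1 of the 3 was present in 35 members (51.5%), 28.5% of tested genes and 13.3% of all promoters. These matches describe letters in a window, and binding of the factors was not measured. Neither Ndufb10 nor Atp5o, which are among the members with the smallest p below, holds any of the 3, whereas Ndufb7 holds the ETS letters and Sdhb holds both the NRF1 and the ETS letters.

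The libraries held 13353619 to 18422845 reads in table genes. The deposited values are normalised counts, reads divided by a factor per library, on which 3 reads are worth 0.157 to 0.228. Their sums over all genes were not equal, with a mean of 1023160 ± 22374 (SD) in pravastatin libraries and 979960 ± 17531 in vehicle libraries. Within cultures the pravastatin sum of nuclear protein-coding genes was 1.016 to 1.034 times the vehicle sum. All 9 markers of neural stem cells and radial glia were above 1 in every library, and their summed value was 7501 to 9210 in pravastatin libraries and 7548 to 8905 in vehicle libraries. None of 5 microglial or 5 erythroid markers was in the table. Astrocyte markers (6 of 6 present) summed to 580 to 2185 in pravastatin libraries and 389 to 2049 in vehicle libraries. Female cultures 2 and 3 were the high ones, with 2185 and 1056 under pravastatin and 2049 and 1316 under vehicle. Within cultures the astrocyte sum was higher under pravastatin in 5 of 6 (log2 difference -0.32 to 0.58). Aldoc, 1 of the 6 markers and also a glycolytic gene, made up a large part of these sums. In female culture 1 it had 425 under pravastatin and 230 under vehicle, where the sums were 580 and 389. Aldoc was higher under pravastatin in 6 of 6 cultures. The sum without Aldoc was not computed, so a joint rise of the markers is not shown. Male pravastatin library 1 stood apart in its mitochondrial content: all mitochondrial genes made up 7.77% of its summed values, against 2.68% to 4.47% in the other 11 libraries. The counts of members called in both sexes are therefore given without male culture 1 and without female cultures 2 and 3 too. For most single genes and for the counts by complex only fits over all 6 cultures are given.

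All 85 members were expressed well above the detection floor. Per kilobase of exon, the mean vehicle level (SD over 6 libraries) was 3091 ± 518 normalised counts for mt-Co1, the catalytic core of complex IV. It was 1522 ± 172 for mt-Cytb, the cytochrome b of complex III, and 1392 ± 111 for mt-Nd1 of complex I. The nuclear members with the highest level per kilobase were Atp5b and Atp5a1, the catalytic and the other hexamer subunit of the ATP synthase F1 head. Atp5b reached 495 ± 71.2 and Atp5a1 487 ± 32.4, levels that do not differ beyond their spread. The remaining mt mRNAs were lower, with 190.4 per kilobase for mt-Nd2, 152 for mt-Nd4, 124 for mt-Nd5 and 74.6 for mt-Nd6. Among the mt mRNAs analysed, the measured vehicle levels thus formed a high group of 3 and a low group of 4. All but mt-Nd6 are read from the same strand. Many short exon stretches of mt-Nd4 (62.2%) and mt-Co1 (51.1%) also occur in other annotated genes. The share was 8.19% for mt-Nd2, 7.61% for mt-Nd5 and 0% for mt-Nd1, mt-Cytb and mt-Nd6. The counting of reads from such stretches was not tested, so the places of mt-Nd4 and mt-Co1 in these groups are uncertain.

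Structural subunits of the nuclear set were higher per kilobase than assembly factors. The median vehicle level per kilobase was 169 for the 5 F1 subunits, 121 for the 8 complex III subunits, 86.4 for the 4 complex II subunits, 60.9 for the 7 nuclear core subunits of complex I and 44.0 for its 29 accessory subunits. It was 37.3 for the 10 subunits of the membrane part and stalk of ATP synthase. The 8 complex I assembly factors had a median of 11.2 and the 4 complex II assembly factors 8.55. Atp5g2, which encodes the c-ring subunit together with Atp5g1 and Atp5g3, was the lowest member at 1.18 per kilobase. Lengths are the union of annotated exons (GENCODE release M21), which overstates the expressed length of genes with long alternative exons.

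**Figure D1:**
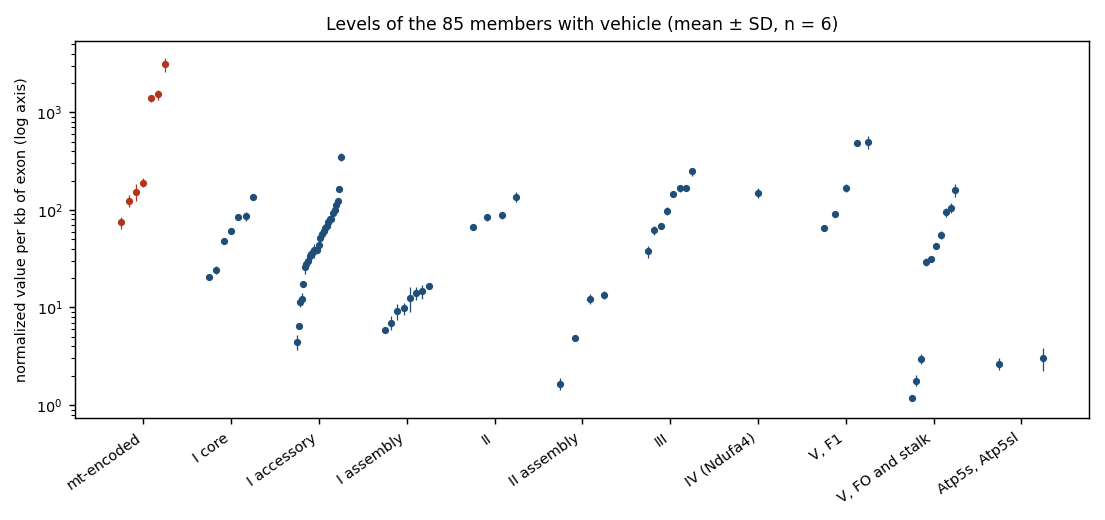
Mean vehicle level per kilobase of exon (log axis, normalised counts per kb) with SD over 6 libraries for each of the 85 members, grouped by complex and role. mt-Co1 (3091), mt-Cytb (1522) and mt-Nd1 (1392) lie above every nuclear member, and the assembly factors of complexes I and II lie below the median of the subunits of their complex.

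In both sexes together, the nuclear-encoded members had small negative changes under pravastatin that ran through every complex, and the 7 mt mRNAs had small positive ones. The fitted change was below 0 for 75 of 78 nuclear members, against 51.8% of the 15093 genes tested. Their median log2 fold change was -0.22 (range -0.35 to 0.12), while the median over all genes was -0.01. All 7 mt mRNAs had a fitted change above 0 (48.2% of genes), with a median of 0.18 (range 0.15 to 0.22). Without male culture 1 all 7 were still above 0, with a median of 0.10 (range 0.07 to 0.22), and without male pravastatin library 1 alone the median was 0.12 and mt-Nd2 had 0.07. The 3 nuclear members with a fitted change above 0 were Atp5g2 (0.12), Sdhaf3 (0.05, and below 0 when the sums of all genes were made equal) and Atp5s (0.01 ± 0.12, within its SE of 0). No member of either kind was past a 1.5-fold change. In bulk RNA, fewer cells of a type and less RNA per cell cannot be told apart. Beside these changes, the summed oligodendrocyte lineage markers (5 of 6 listed in the table, Mog absent; 740 to 1029 in pravastatin libraries and 671 to 890 in vehicle libraries) were higher under pravastatin in 6 of 6 cultures, by 0.06 to 0.31 on the log2 scale. Mural and fibroblast markers (2 of 5 in the table, Rgs5, Col1a2 and Dcn absent) were lower in 6 of 6 (log2 difference -0.69 to -0.44), at sums of only 2.77 to 5.66 in pravastatin libraries and 4.50 to 7.84 in vehicle libraries. The part of these markers in the members' changes was not tested.

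With sex as the only covariate, few of these changes passed the test across all genes. Among the nuclear members 2 were called lower and 0 higher at an adjusted p under 0.05 (limma), where 0.311% of all genes were called lower and 2.69% higher. At an unadjusted p under 0.05, 60 of the 78 were lower, against 7.62% of all genes. edgeR on the recovered reads also called 2 lower (0.311% of genes), and DESeq2 called 19 (1.62% of genes). The limma count of 2 became 8, 6 or 5 without female vehicle library 2, female vehicle library 1 or female pravastatin library 3 (0.677%, 0.736% and 0.433% of genes lower), and 1 without any single one of the other 9 libraries (0.0722% to 0.217% of genes). Of the mt mRNAs, 0 were called by limma, edgeR or DESeq2. At an unadjusted p under 0.05, limma and edgeR had 0 and DESeq2 1 of the 7 higher, where 9.18% of all genes were higher by limma.

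A term for each culture, which takes out what a pravastatin library and its vehicle partner share, moved these counts strongly. With it, 59 nuclear members were called lower and 0 higher, against 8.13% of genes lower and 10.5% higher. At an unadjusted p under 0.05, 69 of 78 were lower (16.8% of genes). mt-Co1 alone of the 7 mt mRNAs was called higher, and 6 of 7 were higher at an unadjusted p under 0.05 (16.9% of genes). Without male culture 1, the fit with a culture term called 47 nuclear members lower (4.73% of genes) and mt-Co1 higher (7.9% of genes), while the fit with sex alone called 0 nuclear members lower (0.0464% of genes) with 45 lower at an unadjusted p under 0.05 (3.98% of genes). Without female cultures 2 and 3, the fit with sex alone called 43 nuclear members lower (7.95% of genes) and 5 mt mRNAs higher (8.76% of genes), and the culture-term fit called 55 nuclear members lower (12.5% of genes) and 6 mt mRNAs higher (13% of genes). The mt calls also depended on scaling: with the sums of nuclear protein-coding genes made equal and the culture term kept, 67 nuclear members were called lower and 0 mt mRNAs higher, where 14% of all genes were called lower and 8.75% higher.

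**Figure D2:**
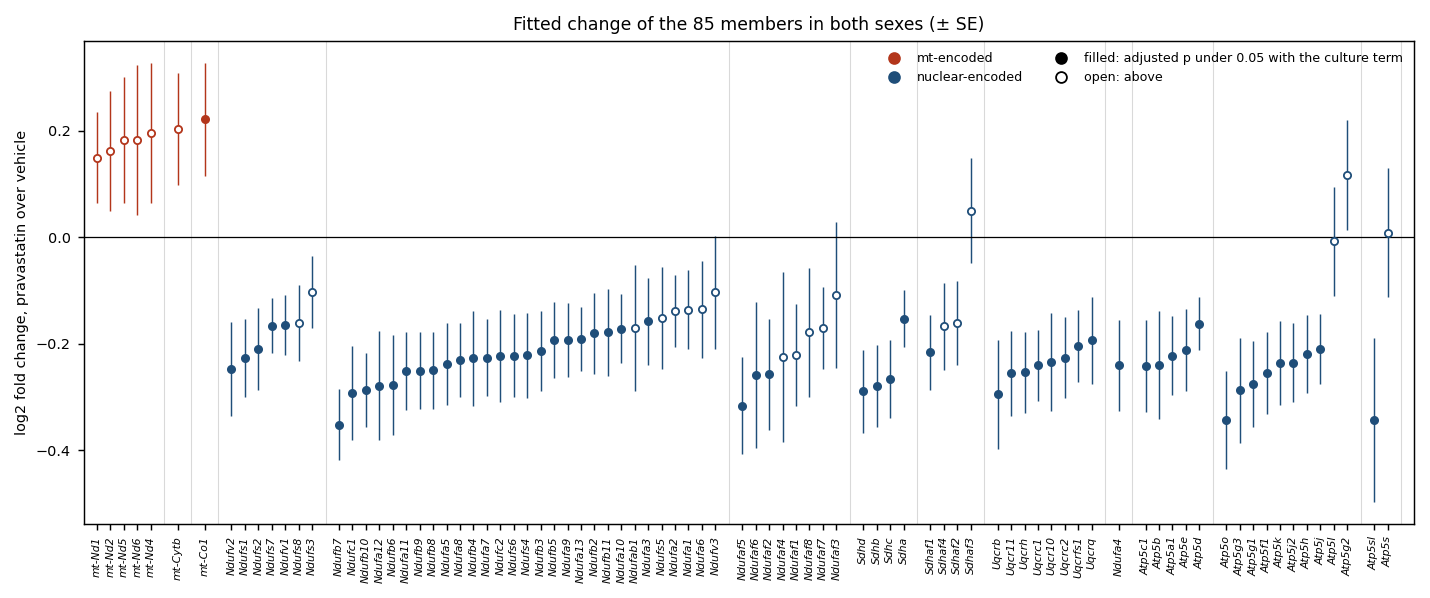
Log2 fold change of pravastatin over vehicle (± SE, both sexes) for all 85 members by complex and role; filled points have an adjusted p under 0.05 in the fit with a culture term. The 7 mt-encoded points lie between 0.15 and 0.22 and 75 of 78 nuclear points lie below 0.

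Complex I, the largest complex, showed the pattern in nearly all its nuclear parts. Every one of its 36 nuclear subunits had a fitted change below 0 (51.8% of all genes). With the culture term 28 were called lower (8.13% of all genes): 5 of 7 core subunits and 23 of 29 accessory subunits. Ndufb7 and Ndufb10 are accessory subunits of the membrane arm and were the 2 members called with sex alone. Ndufb7 (chr8:83566671-83571626, + strand, GRCm38) had 66.0, 60.8 and 63.5 normalised counts in female pravastatin libraries and 55.9, 59.3 and 67.9 in male ones. In vehicle libraries the values were 77.3, 69.1 and 79.6 in females and 83.6, 82.7 and 84.9 in males. All 6 pravastatin values of Ndufb7 therefore lay below all 6 vehicle values. The fitted log2 change of Ndufb7 was -0.35 ± 0.07 (SE), with an adjusted p of 0.00988. Without male culture 1 the change was -0.31 and the adjusted p 0.0518, and over all cultures with a culture term the adjusted p was 0.00215.

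Ndufb10 (chr17:24722060-24724478, - strand) had 71.3, 66.0 and 74.1 in female pravastatin libraries and 57.7, 71.1 and 67.2 in male ones. The vehicle values were 78.3, 76.3 and 79.8 in females and 85.4, 89.5 and 87.5 in males. The treatments again did not overlap, and the sexes were further apart in the vehicle libraries than in the pravastatin ones. It changed by -0.29 ± 0.07 on the log2 scale (adjusted p = 0.0448). Leaving out any of 9 single libraries took that adjusted p above 0.05, to between 0.0520 and 0.128, and it was 0.119 without male culture 1. With the culture term it was 0.0053 over all 6 cultures. Both genes share no 50-base stretch of exon with another annotated gene.

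Across all 78 nuclear members, 4 had every pravastatin library below every vehicle library (5.13%, against 0.59% of genes): Ndufb7, Ndufb10, Ndufa11 and Atp5d. Ndufa11, another membrane-arm subunit of complex I, had 29.7, 35.9 and 38.9 as its lowest, median and highest pravastatin values and 39.4, 42.1 and 46.7 as the same 3 vehicle values. Ndufa11 was not called with sex alone (-0.25 ± 0.07, adjusted p = 0.103) and was called with the culture term (0.0255). None of the 7 mt mRNAs had all pravastatin values above all vehicle values (2.25% of genes).

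In the catalytic arm of complex I, Ndufs1 and Ndufv1 had smaller changes than Ndufb7 and Ndufb10. Ndufb7 and Ndufb10 were named for their small p, so this difference does not set the arm apart. Ndufs1 carries iron-sulphur clusters of the electron entry module, and it had a lowest, median and highest value of 148, 166 and 189 under pravastatin and 174, 199 and 219 under vehicle. Ndufv1, which binds NADH and flavin, had 125, 145 and 157 under pravastatin and 153, 162 and 167 under vehicle. For both genes the treatments overlapped, but within each of the 6 cultures the pravastatin value was the lower one. Ndufs1 had a log2 fold change of -0.23 ± 0.07 (adjusted p = 0.142, and 0.00696 with the culture term) and Ndufv1 one of -0.16 ± 0.06 (adjusted p = 0.167, and 0.0334). Ndufs3 and Ndufs8 were the core subunits not called in either fit, with changes of -0.10 and -0.16. Among accessory subunits the 6 not called with the culture term were Ndufa1, Ndufa2, Ndufa6, Ndufab1, Ndufs5 and Ndufv3, with changes between -0.17 and -0.10. Ndufab1 also serves as the mitochondrial acyl carrier protein, and its values were 19.4, 27.5 and 31.5 under pravastatin and 23.4, 31.4 and 38.04 under vehicle.

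Complex II has no mt-encoded part, and all 4 of its subunits were called lower with the culture term (8.13% of all genes). The median change of the 4 was -0.27. Sdhb, the iron-sulphur subunit, had 145, 154 and 176 in female pravastatin libraries and 133, 162 and 170.1 in male ones. Its vehicle values were 170.2, 172 and 191 in females and 193, 209 and 203 in males. Only female pravastatin library 3 (176) lay among the vehicle values. Sdhb changed by -0.28 ± 0.08 (adjusted p = 0.0837, and 0.00326 with the culture term).

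Sdhd, which with Sdhc anchors the complex in the membrane and binds ubiquinone, had 119, 137 and 155 under pravastatin and 141, 168 and 191 under vehicle as its lowest, median and highest values. Its change was -0.29 ± 0.08 (adjusted p = 0.0787, and 0.00539 with the culture term). Sdhc changed by -0.27 ± 0.07 (adjusted p = 0.0842, and 0.00466). Sdha, the flavoprotein that oxidises succinate, had the smallest change of the 4, at -0.15 ± 0.05 (adjusted p = 0.169, and 0.0256). Sdha values ran from 294 to 350 under pravastatin, with a median of 336, and from 322 to 395 under vehicle, with a median of 366.

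All 8 nuclear subunits of complex III in the set were called lower with the culture term (8.13% of all genes), with a median change of -0.24. Uqcrc1 encodes a large core protein on the matrix side. It had 236, 226 and 259 in female pravastatin libraries and 208, 259 and 264 in male ones, against 276, 257 and 280.1 in female vehicle libraries and 296, 294 and 307 in male ones. The 3 highest pravastatin values overlapped the lowest vehicle value, and each culture on its own had the lower value under pravastatin. Uqcrc1 changed by -0.24 ± 0.07 (adjusted p = 0.0875, and 0.00616 with the culture term). Uqcr11, a small subunit whose promoter window is printed above, had 76.1, 92.6 and 101 as its lowest, median and highest values under pravastatin and 94.8, 108 and 118 under vehicle, a change of -0.26 ± 0.08 (adjusted p = 0.127, and 0.0112). Uqcrfs1, the Rieske iron-sulphur protein, changed by -0.20 ± 0.07 (adjusted p = 0.153, and 0.0168). The mt-encoded partner of these proteins, mt-Cytb, had a fitted change of the opposite sign, given below.

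ATP synthase followed the same course in 13 of its 15 nuclear subunits, called lower with the culture term (8.13% of all genes). These were all 5 of the F1 head and 8 of 10 of the membrane part and stalk. Atp5l and Atp5g2 were not called. Atp5o, a stalk subunit that holds the head in place, had 171, 133 and 169.7 in female pravastatin libraries and 139, 179.5 and 183 in male ones. In vehicle libraries Atp5o had 201, 167 and 195 in females and 219, 216 and 239 in males. The lowest vehicle value was that of female culture 2, whose pravastatin partner was also the lowest, so the treatments overlapped while each culture did not. Atp5o changed by -0.34 ± 0.09 (adjusted p = 0.0745, and 0.000892 with the culture term). Of the 50-base stretches of its exons, 41.6% also occur in other annotated genes. How reads from those stretches were counted was not tested, so the level of Atp5o is uncertain.

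Of the F1 head, Atp5a1 averaged 1313 ± 125 under pravastatin and 1528 ± 102 under vehicle (SD, n = 6 each). Atp5b averaged 1772 ± 228 under pravastatin and 2098 ± 302 under vehicle. Their changes were -0.22 ± 0.07 for Atp5a1 (adjusted p = 0.156, and 0.0156 with the culture term) and -0.24 ± 0.10 for Atp5b (adjusted p = 0.256, and 0.0177). Atp5d, the delta subunit of the central stalk, had the narrow ranges of 146 to 166 under pravastatin and 167 to 183 under vehicle, with a change of -0.16 ± 0.05 (adjusted p = 0.122, and 0.0192). Atp5e, the epsilon subunit of the same stalk, had 80.6, 99.6 and 108 under pravastatin and 104, 116 and 121 under vehicle as its lowest, median and highest values, and changed by -0.21 ± 0.08 (adjusted p = 0.183, and 0.0218).

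The same mature c-ring subunit is encoded by 3 genes that differ in their targeting sequences. Atp5g3 made up most of their summed level, with a mean of 284 ± 36.2 under pravastatin and 348 ± 51.8 under vehicle. Atp5g1 averaged 12.0 ± 1.25 under pravastatin and 14.7 ± 1.62 under vehicle. Both were called lower with the culture term (Atp5g3 -0.29, adjusted p = 0.00422; Atp5g1 -0.28, adjusted p = 0.0265) and not with sex alone (0.165 and 0.103). Atp5g2 averaged 2.202 ± 0.318 under pravastatin and 1.98 ± 0.146 under vehicle, and its fitted change of 0.12 ± 0.10 was not called (adjusted p = 0.612). At some 2 normalised counts Atp5g2 rests on few reads, and 38.4% of its 50-base stretches occur in other genes.

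Ndufa4 carries a complex I name and is now counted as a subunit of complex IV. It averaged 176 ± 22.2 under pravastatin and 208 ± 25.6 under vehicle, was lower in 6 of 6 cultures, and changed by -0.24 ± 0.09 (adjusted p = 0.177, and 0.0132 with the culture term).

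Of the assembly factors, 3 of 8 complex I factors (Ndufaf2, Ndufaf5 and Ndufaf6) and 1 of 4 complex II factors (Sdhaf1) were called lower with the culture term (8.13% of all genes). Ndufaf5, which modifies the core subunit Ndufs7, had 17.8, 19.8 and 22.98 under pravastatin and 18.7, 26.2 and 28.9 under vehicle as its lowest, median and highest values. The vehicle values of female cultures 2 and 3 (18.7 and 22.5) lay among the pravastatin values and the other 4 above them. Ndufaf5 changed by -0.32 ± 0.09 (adjusted p = 0.0977, and 0.00541 with the culture term). The exons of Ndufaf2 and Sdhaf1 share 64.1% and 69.0% of their 50-base stretches with another annotated gene each. How reads from those stretches were counted was not tested, so the levels of both are uncertain.

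Across all 78 nuclear members, those called with the culture term were the more abundant ones. The 59 called members had a median vehicle value of 113 normalised counts and a median SE of 0.06, and the other 19 had 24.9 and 0.08. Of the 67 members with a vehicle mean of at least 20 normalised counts, all 67 had a fitted change below 0 and 56 were called. Of the 11 below 20, 8 had a fitted change below 0 and 3 were called. The called members sit on 18 chromosomes. A motif letter match was present in 25 of the 50 called members with a promoter and in 10 of the 18 others.

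**Figure D3:**
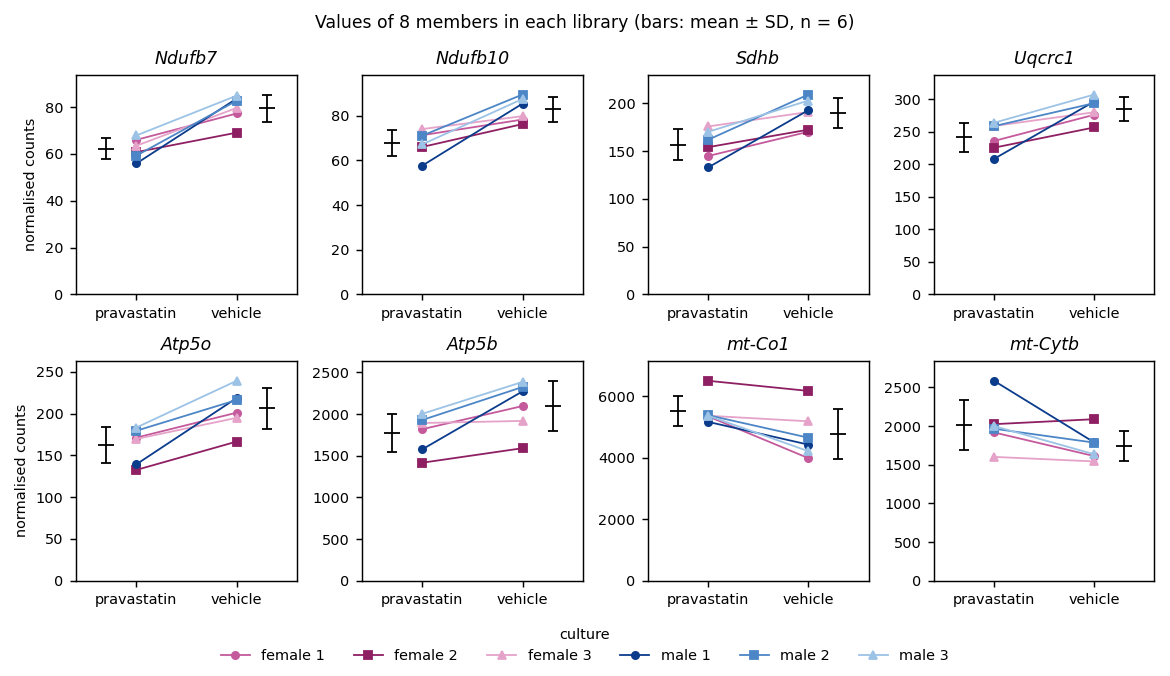
Normalised counts in each library for 8 members, pravastatin left and vehicle right in each panel, with lines joining the libraries of a culture and the mean ± SD (n = 6). In Ndufb7 and Ndufb10 every pravastatin point lies below every vehicle point, and in mt-Co1 and mt-Cytb the treatments overlap.

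Turning to the mt mRNAs, mt-Co1 was higher under pravastatin in 6 of 6 cultures, the only one of the 7 to be so (11.7% of genes). It had 5349, 6507 and 5369 in female pravastatin libraries and 5170.1, 5387 and 5372 in male ones. In vehicle libraries it had 3989, 6177 and 5188 in females and 4429, 4655 and 4215 in males. In males the treatments did not overlap, whereas female vehicle library 2 exceeded 5 of the 6 pravastatin libraries. mt-Co1 changed by 0.22 ± 0.11 (adjusted p = 0.319, and 0.0354 with the culture term). Of its 50-base stretches, 51.1% also occur in 3 other annotated genes. How reads from those stretches were counted was not tested, so its level is uncertain.

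mt-Cytb had 1917, 2024 and 1601 in female pravastatin libraries and 2585, 1965 and 1999.8 in male ones, against 1611, 2088 and 1542 in female vehicle libraries and 1788, 1785 and 1635 in male ones. Its change was 0.20 ± 0.11 (adjusted p = 0.359, and 0.0525 with the culture term). The highest value, 2585, came from male pravastatin library 1. mt-Nd1 averaged 1489.9 ± 239.7 under pravastatin and 1332 ± 106 under vehicle, a change of 0.15 ± 0.08 (adjusted p = 0.404, and 0.111).

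The 4 low complex I mRNAs varied more. mt-Nd4, a proton-pumping subunit, had 215, 287 and 195 in female pravastatin libraries and 294, 222 and 225 in male ones. Its vehicle values were 183, 291 and 213 in females and 198, 191 and 182 in males. All male pravastatin values lay above all male vehicle values, and the female values interleaved. mt-Nd5 ran from 202 to 308 under pravastatin, with a median of 253, and from 191 to 284 under vehicle, with a median of 224. For mt-Nd2 the lowest, median and highest values were 164, 217 and 315 under pravastatin and 161, 201 and 218 under vehicle. The changes were 0.20 ± 0.13 for mt-Nd4, 0.18 ± 0.12 for mt-Nd5 and 0.16 ± 0.11 for mt-Nd2, and none was called with sex alone (adjusted p between 0.465 and 0.499) or with the culture term (between 0.0667 and 0.132). Another annotated gene, Gm28439, shares 62.2% of the 50-base stretches of mt-Nd4.

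mt-Nd6 is the only one of the 7 read from the opposite strand, and its 3′ end overlaps that of mt-Nd5 (13552 to 13565 on the mt genome). It had 31.3, 53.8 and 40.2 in female pravastatin libraries and 59.2, 41.9 and 41.3 in male ones, against 33.2, 43.2 and 37.7 in female vehicle libraries and 37.6, 46.9 and 33.6 in male ones. The treatments overlapped in both sexes, and the change was 0.18 ± 0.14 (adjusted p = 0.553, and 0.155 with the culture term). The kit keeps strand and the study's methods give default HTSeq parameters for the counting. Whether that setting matched the orientation of the reads was not tested, so the level of mt-Nd6 is uncertain. The same limit applies to the levels of all other members.

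Within every culture the median mt mRNA lay above the median nuclear member, by very different amounts. The median log2 difference of the 78 nuclear members was -0.14, -0.16 and -0.12 in female cultures 1, 2 and 3 and -0.49, -0.21 and -0.20 in male cultures 1, 2 and 3. Between 69 and 76 of the 78 were lower in each culture, while 49.9% to 52.4% of all genes were. The median of the 7 mt mRNAs was 0.23, -0.02 and 0.05 in the female cultures and 0.57, 0.11 and 0.29 in the male ones. In female culture 2 only 3 of 7 mt mRNAs were higher, and in male cultures 1 and 3 all 7 were. Over all 6 cultures, 59 nuclear members were lower in every culture (10.6% of genes) and 71 in at least 5.

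**Figure D4:**
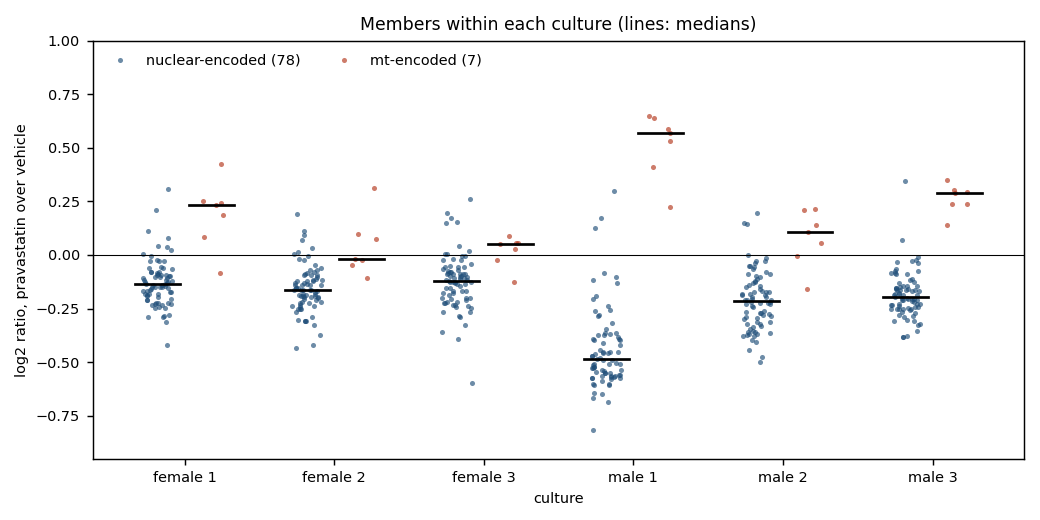
Log2 ratio of pravastatin over vehicle of each of the 78 nuclear and 7 mt-encoded members (points, with lines at the medians) in each of the 6 cultures. Male culture 1 has the widest gap, with medians of -0.49 and 0.57, and in female culture 2 the mt median is -0.02.

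The summed values give the same contrast on a scale set by the most abundant members. The 78 nuclear members summed to 9940.1, 9103 and 10728 in female pravastatin libraries and 8672, 10554 and 10764 in male ones. In vehicle libraries they summed to 11123, 10200.1 and 11460.1 in females and 12165, 12503 and 12442 in males. The pravastatin sum was 0.89, 0.89 and 0.94 times its vehicle partner in female cultures and 0.71, 0.84 and 0.87 times in male ones. All 3 male pairs and all 3 female pairs were lower, but the highest pravastatin sums exceeded the vehicle sum of female culture 2.

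The 7 mt mRNAs summed to 9446, 10677 and 8794 in female pravastatin libraries and 10612, 9574 and 9684 in male ones, against 7475, 10488 and 8524 in female vehicle libraries and 8275, 8559.99 and 7813 in male ones. Their share of all protein-coding values was 1.101%, 1.22% and 1.01% in female pravastatin libraries and 1.23%, 1.0998% and 1.11% in male ones. In vehicle libraries the share was 0.894%, 1.22% and 1.01% in females and 0.979%, 1.01% and 0.924% in males. The mean difference over the 6 cultures was 0.124 percentage points (SD 0.107), of which female cultures 2 and 3 contributed 0.0014 and 0.0063. Leaving out male culture 1 gave 0.0976 points, and leaving out female cultures 2 and 3 gave 0.183 points.

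**Figure D5:**
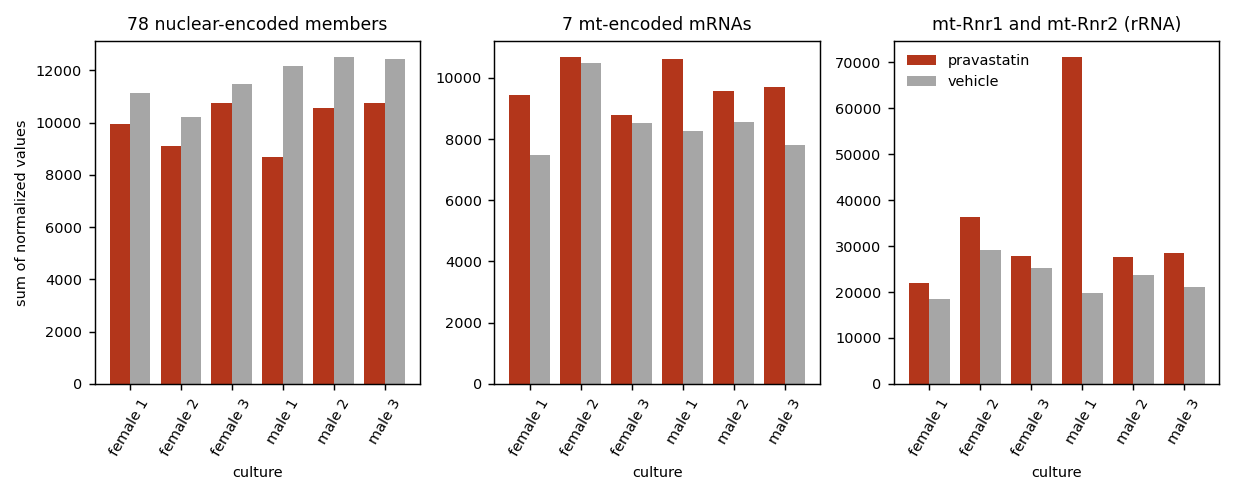
Summed normalised counts of the 78 nuclear members, the 7 mt mRNAs and the 2 mt rRNAs in each library (vertical axes, from 0), with the pravastatin bar left of the vehicle bar of its culture. The nuclear sum is lower under pravastatin in all 6 cultures, and the mt rRNA bar of male pravastatin library 1 (71156) stands above all others.

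The ratio of the mt sum to the nuclear sum does not depend on how libraries are scaled. It was 0.950, 1.17 and 0.820 in female pravastatin libraries and 1.22, 0.907 and 0.900 in male ones. In vehicle libraries it was 0.672, 1.03 and 0.744 in females and 0.680, 0.685 and 0.628 in males. The ratio was higher under pravastatin in 6 of 6 cultures, by 0.50, 0.19 and 0.14 (log2) in female cultures 1, 2 and 3 and by 0.85, 0.41 and 0.52 in male cultures 1, 2 and 3. Libraries of the 2 treatments still overlapped, because the vehicle library of female culture 2 had 1.03. That culture also had the highest astrocyte marker sums.

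Mitochondrial ribosomal RNA set male pravastatin library 1 apart more than the mRNAs did. mt-Rnr1 and mt-Rnr2, the small and large mt rRNAs, summed to 21875, 36228 and 27839 in female pravastatin libraries and 71156, 27579.5 and 28395 in male ones. In vehicle libraries the sums were 18379, 29122 and 25181 in females and 19839, 23609 and 21034 in males. Every pravastatin library was above its vehicle partner, by 1.11 to 1.35 times in 5 cultures and by 3.59 times in male culture 1. In that culture mt-Rnr1 was 5.58 times and mt-Rnr2 3.36 times its vehicle value, whereas the mt mRNA sum was 1.28 times and the nuclear sum 0.71 times. The ratio of mt rRNA to mt mRNA was 6.71 in that library and 2.32 to 3.39 in the other 11. Whether the mt rRNA content has a part in the larger changes of male culture 1 was not tested. With the culture term mt-Rnr2 was called higher over both sexes (0.53 ± 0.17, adjusted p = 0.0464) and mt-Rnr1 was not (0.57 ± 0.24, adjusted p = 0.111), and neither was called with sex alone (0.299 and 0.414). Without male culture 1 the changes were smaller, 0.28 for mt-Rnr2 and 0.18 for mt-Rnr1, and the culture-term fit called both (adjusted p = 0.0273 and 0.0358), while the fit with sex alone called neither (0.682 and 0.674).

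By sex, the changes were called mostly in male cultures. In males 29 nuclear members were called lower and 0 higher (4.36% of genes lower, 6.08% higher), with 61 lower at an unadjusted p under 0.05 (14.0% of genes) and a median change of -0.29. The culture term raised this to 48 (8.78% of genes lower, 10.1% higher). mt-Nd4 (0.36 ± 0.10, adjusted p = 0.0407) and mt-Nd5 (0.31 ± 0.09, adjusted p = 0.0440) were the mt mRNAs called higher in males, and 5 of 7 were higher at an unadjusted p under 0.05 (13.5% of genes). With the culture term mt-Nd1, mt-Nd4, mt-Nd5, mt-Cytb and mt-Co1 were called. Without male culture 1, 20 nuclear members were called (2.37% of genes), and 47 with the culture term (10.4% of genes).

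The male counts depended on single libraries. Leaving out male vehicle library 1, 2 or 3 left 6, 1 or 5 nuclear members called lower, while 1.09%, 0.816% and 1.84% of all genes were. It left 0 mt mRNAs called in each case, with 3.53%, 3.14% and 3.86% of genes higher. Leaving out male pravastatin library 2 left 15 nuclear members lower (1.8% of genes) and 1 mt mRNA higher (3.96% of genes). The calls over all genes thus fell in these fits too. Making the sums of nuclear protein-coding genes, or of all genes, equal between libraries gave 45 or 47 nuclear members lower in males and 0 mt mRNAs higher. These rescalings moved all genes: 7.5% and 9.26% were then called lower, and 5.3% and 4.51% higher.

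In female cultures 0 members were called by limma, edgeR or DESeq2. Over all genes 0.0724% were called higher and 0.0% lower. At an unadjusted p under 0.05, 2 nuclear members were lower (0.382% of genes) and 0 mt mRNAs were higher. The median change was -0.14 for the nuclear members and 0.07 for the mt mRNAs. With the culture term still 0 members were called (1.95% of genes higher, 0.184% lower), while 37 nuclear members were lower at an unadjusted p under 0.05 (5.78% of genes).

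A call in males and not in females does not show that the sexes differed, and the interaction of sex and treatment called 0 members and 0.0% of the 15765 genes tested by limma, and likewise 0 by edgeR and DESeq2. At an unadjusted p under 0.05, 3 nuclear members had a lower change in males (0.374% of genes): Sdhaf3, Ndufb10 and Ndufaf8. With the culture term it was 18 nuclear members (3.82% of genes) and, higher in males, 2 mt mRNAs (3.44% of genes), again with 0 called (0.0% of genes). The median male-minus-female difference was -0.15 for nuclear members and 0.19 for mt mRNAs with male culture 1, and -0.06 and 0.10 in the culture-term fit without it.

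Sdhaf3, an assembly factor for the iron-sulphur subunit of complex II, had the interaction with the smallest unadjusted p. It had 8.78, 8.25 and 10.1 in female pravastatin libraries and 6.99, 7.16 and 8.36 in female vehicle libraries. In males it had 7.98, 8.54 and 8.77 under pravastatin and 9.29, 9.66 and 9.35 under vehicle. Every female culture was higher and every male culture lower, with an interaction of -0.41 ± 0.17 (unadjusted p = 0.0321 in limma's fit across genes, adjusted p = 1.00). Ndufaf8, an assembly factor of complex I, had 13.1, 8.85 and 11.6 in female pravastatin libraries and 12.0, 9.41 and 10.5 in female vehicle libraries. In males it had 9.57, 10.8 and 10.4 under pravastatin and 14.8, 13.9 and 12.9 under vehicle, and its interaction was -0.47 ± 0.21 (unadjusted p = 0.0450).

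The members also differed in how much they varied between cultures before any treatment. Ndufaf4, an early assembly factor of complex I, had the largest spread over the 6 vehicle libraries, with an SD of 0.47 (log2) and a highest value 2.11 times the lowest. Its pravastatin values were 44.5, 27.5 and 38.9 in females and 38.2, 46.8 and 50.6 in males, and its vehicle values 54.5, 28.5 and 33.9 in females and 58.4, 60.3 and 59.8 in males. Female cultures 2 and 3 were low under both treatments. Ndufaf4 changed by -0.22 ± 0.16 (adjusted p = 0.516, and 0.071 with the culture term).

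Atp5sl, also named Dmac2 and known as an assembly factor of complex I and not as a part of ATP synthase, varied the other way. It had 5.98, 10.2 and 7.65 in female pravastatin libraries and 5.85, 6.83 and 6.12 in male ones, against 6.88, 12.8 and 11.8 in female vehicle libraries and 8.22, 7.90 and 7.68 in male ones. Female cultures 2 and 3 were the high ones, and each culture was lower under pravastatin. Atp5sl changed by -0.34 ± 0.15 (adjusted p = 0.285, and 0.0144 with the culture term). Ndufaf3, with a vehicle range of 11.9 to 20.4, changed by -0.11 ± 0.14 and was not called in either fit (adjusted p = 0.743 and 0.346).

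Genes of the same pathway outside the name rule were counted from fixed lists. Of 15 nuclear complex IV and cytochrome c genes in the table (of 17 listed), 0 were called with sex alone. With the culture term 9 were lower and 0 higher, against 8.13% and 10.5% of all genes. The median change of the 15 was -0.19. Cyc1, the cytochrome c1 of complex III, changed by -0.25 ± 0.08 (adjusted p = 0.137, and 0.00423 with the culture term), and Cox5b and Cox6c, nuclear subunits of complex IV, by -0.26 and -0.21 (adjusted p = 0.0155 and 0.0150 with that term). Of 22 further assembly factors of complexes III to V, 1 was called with sex alone (0.311% of genes lower). With the culture term 6 were called (8.13% of genes lower), and all these calls were lower. The 1 was Uqcc2, needed to make cytochrome b (-0.30 ± 0.07, adjusted p = 0.0426).

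In each of 3 lists of genes that act on the mt genome, its RNA or respiratory genes, 1 or 2 were called lower and 0 higher with the culture term. Over all genes 8.13% were lower and 10.5% higher, and the lists were not tested against these shares. Of 12 genes for mtDNA transcription and copying, 2 were lower with the culture term: Mgme1, an exonuclease for mtDNA (-0.27), and Polg, the mtDNA polymerase (-0.16). Polg2, its accessory subunit, had a change of the other sign (0.27 ± 0.10, adjusted p = 0.0790 with the culture term) and was called higher in males with that term (0.45 ± 0.12, adjusted p = 0.0179). Of 15 genes for mt RNA maturation and stability, 2 were lower: Supv3l1, an RNA helicase of the mt degradosome (-0.24), and Slirp, a partner of the mRNA-stabilising protein Lrpprc (-0.23). Of 10 regulators of respiratory genes, 1 was lower, Perm1 (-0.48 ± 0.14 with the culture term, adjusted p = 0.0326), and none of these 3 lists had a member called with sex alone. At an unadjusted p under 0.05 with sex alone, 1, 5 and 1 of them were lower, against 7.62% of all genes.

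Of 16 glycolytic genes, 0 were called with sex alone (2 higher and 1 lower at an unadjusted p under 0.05), and 5 were higher and 1 lower with the culture term, against 10.5% and 8.13% of all genes. Pkm, pyruvate kinase, changed by 0.27 ± 0.05 and Hk1, hexokinase 1, by 0.20 ± 0.05 in that fit (adjusted p = 0.00169 and 0.0211). Ldhb, the lactate dehydrogenase subunit that favours pyruvate formation, changed by -0.29 ± 0.05 (adjusted p = 0.000973). The median over the 16 was 0.04, and the median was above 0 in 5 of 6 cultures.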

How the data were processed

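Per the labels and the study's methods, the authors merged technical runs, aligned reads to GRCm38 with TopHat2 2.1.1, counted them with HTSeq on a merged Cufflinks annotation and tested with edgeR. The deposited values (unit: signal) are normalised counts, reads divided by a size factor per library, with low genes already removed. Dividing by the smallest step of each library gave whole reads for 100% of values (tolerance 0.001), and these reads were recovered. The deposited fold changes (a signed score) and p-values of the authors' own comparisons were not used.

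Members, lists and alternatives were chosen with earlier results of these data known. Named genes are the mt mRNAs, the 8 nuclear members per direction with the smallest p among those called with or without the culture term, 8 catalytic subunits, the 4 nuclear members with the largest vehicle SD, the 3 members with the smallest interaction p, paralogs, members below the filter (0), and up to 3 called genes per other list. Others named were chosen after their values were seen.

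Log2(value + 0.5) was fitted by limma 3.58.1 (trend, R 4.3.3) with sex as covariate. The genes fitted had a value above 1 in 6 or more libraries, or in 3 or more for a single sex and for the interaction. Benjamini-Hochberg adjustment was over all genes tested, and called means adjusted p under 0.05. Fold changes are on that log2 scale, which slightly understates low genes. An alternative adds a term for each culture. The labels give replicate numbers and do not state a pairing. Deviations of same-numbered libraries from their group means correlated by 0.871, 0.871 and 0.428 in females and 0.182, 0.179 and 0.303 in males. Other-numbered libraries correlated by -0.838 to 0.425 in females and -0.196 to -0.019 in males. The 0.425 was female pravastatin library 2 with female vehicle library 3. On these values the numbers were taken to pair the libraries, and the culture-term fits rest on that. edgeR 4.0.16 and DESeq2 1.42.0 ran on the recovered reads, where edgeR called 399 genes higher and 47 lower. The scripts were tested on simulated counts. Tables and figures used Python 3.11.15, pandas 2.3.3 and matplotlib 3.10.9. Promoters come from RefSeq, exon lengths and coordinates from GENCODE M21 (GRCm38). The 3 sheets hold the same values, and floors cover counting error only.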

Additional observations from a re-analysis of the deposited data

Results flagged for a closer look

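In male pravastatin library 1, several mitochondrial values lay far from the other 5 pravastatin libraries (Dixon's test for a sample far from the rest of a group of 6, at the usual critical value). These were the mt rRNA sum (71156), mt-Rnr1 (11394), mt-Rnr2 (59762), the ratio of mt rRNA to mt mRNA (6.71), the share of all mt genes (7.77%) and mt-Nd2 (315). mt-Co1 was far above the other pravastatin libraries in female pravastatin library 2 (6507), and Sdhaf3 in female pravastatin library 3 (10.1).

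Among the 6 vehicle libraries, female vehicle library 2 stood apart with the mt mRNA sum (10488), the mt mRNA share of protein-coding values (1.22%), the mt-to-nuclear ratio (1.03) and mt-Nd4 (291). In all, 82 groups were tested and 12 values passed, and chance flags about 1 group in 20.

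Among 31 members checked for opposite directions, Sdhaf3 was higher under pravastatin in every female culture and lower in every male culture. Sdhaf3 was named for its small interaction p, so the flag restates that choice. The share of all genes with such a split is not given here. The male median of the log2 differences of Sdhaf3 minus the female median was -0.43. Its interaction had an unadjusted p of 0.0321 in limma's fit across genes, which did not pass adjustment.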

How the results depend on the processing

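The share of all genes called lower differed between fits, from 0.0464% to 14% over the fits for both sexes whose share is given above. Counts below from fits whose share is not given above stand without that share. They are not set against all genes here and say nothing particular to the members. For both sexes, 2 nuclear members were called. The count was 8 with sums of nuclear protein-coding genes made equal, 4 with sums of all genes made equal, 19 with DESeq2, 59 with the replicate block (the culture term), 59 with edgeR and that block, 67 with the nuclear sums made equal and that block, 0 without male culture 1 and 47 with the block added, 43 without female cultures 2 and 3 and 55 with the block added. Leaving out single libraries gave 1 to 8 (8 without female vehicle 2, 6 without female vehicle 1, 5 without female pravastatin 3, 1 for each of the other 9). The 0 mt mRNAs called became 1 with the replicate block, 2 with edgeR and that block, 1 without male culture 1 with that block, 5 without female cultures 2 and 3 and 6 with the block added, and stayed 0 under every single-library omission (range 0 to 0). In males, the 29 nuclear members became 45 and 47 with the nuclear and all-gene sums made equal, 48 with the replicate block and 47 without male culture 1 with that block, and 1 (without male vehicle 2) to 39 (without male pravastatin 3) without single libraries. The 2 mt mRNAs became 0 under both rescalings, 5 with DESeq2, 5 with the replicate block, 5 without male culture 1 with that block, and 0 to 2 without single libraries. In females and for the interaction the counts were 0 in all alternatives run, the replicate block included. The log2 change of Sdhaf3 (0.05) became -0.00887 with all sums made equal, -0.0390 without female cultures 2 and 3 and -0.0390 with the block added, and ran over -0.00786 (without female pravastatin 3) to 0.0890 (without male pravastatin 1) without single libraries. The nuclear median over both sexes stayed negative and the mt median positive in every alternative. The mean difference in mt mRNA share was 0.0885 percentage points when taken of all values and 0.0976 to 0.148 points without single cultures. Ndufb7 kept its call without any single library (adjusted p 0.00363 to 0.0359). The block fits without female cultures 2 and 3, with edgeR and with nuclear sums made equal were chosen after seeing the data. Females without cultures 2 and 3 were not run, since 1 library per treatment would remain. Depth limits Atp5g2, Sdhaf3 and other members near 10 normalised counts or below, and the cause of these shifts was not tested.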
